A study of Mus musculus with 6 samples.

Results

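Lung gene expression of ICR mice was compared with that of DBA mice over both exposures of a cigarette smoke study. The ICR control, ICR smoked, DBA control and DBA smoked arrays were taken by sample title, which are 4 of the 6 arrays of the series. The other 2 arrays, C57 control and C57 smoked, entered the scaling, the filter on low signal and the estimate of spread, and their levels are given beside some genes. The series asks about resistance and sensitivity of mouse lung to smoke. ICR mice have been described in this field as resistant to smoke-induced emphysema and DBA mice as sensitive, which the labels do not state. The smoked groups received the smoke of 3 cigarettes a day on 5 days a week for 4 weeks, and the control groups are labelled as normal lung. Each title numbers its sample as mouse 1 of its group, so every strain and exposure had 1 array and every strain 2 arrays. The sources used here do not give the substrain, sex, age or hour of collection, or say if RNA was pooled. ICR is an outbred stock, so 1 ICR mouse carries 1 draw of the alleles of that stock, whereas DBA and C57 are inbred. Total RNA of the lung was labelled as biotin cRNA and hybridised to an Affymetrix array of 12488 probe sets, of which 66 were controls.

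Inbred strains differ in gene expression through sequence variants that act near a gene and through differences in the make-up and state of their tissue. The major histocompatibility complex on mouse chromosome 17 is the best known variable stretch: it holds the class I and class II genes, whose products present peptides to T cells, and between them other genes, among which lie the inducible heat shock proteins of the Hsp70 family. In the lung, club and goblet cells of the airways secrete antimicrobial and mucus-related proteins, and alveolar type II cells secrete surfactant.

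Both strains carried the lung's own transcripts near the top of the array. The surfactant gene Sftpc read 10580 and 10080 in DBA and 7184 and 7359 in ICR, and the club cell gene Scgb1a1 9625 and 10320 in DBA and 7737 and 7572 in ICR, in deposited intensity. The ICR smoked array stood apart. Its median deposited intensity was 25.9, against 52.2 for ICR control, 68.7 for DBA control and 84.8 for DBA smoked. The ratio of the 3' to the 5' beta-actin control probe set, which rises as RNA degrades, was 4.75 there, against 1.63, 1.46 and 1.67. All levels below are therefore log2 of the deposited intensity plus 8.05, scaled between arrays by quantiles (scaled log2 level), and a difference is ICR minus DBA on that scale, the mean of the control pair and the smoked pair. The control pair does not include the ICR smoked array.

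Of 7453 probe sets tested with limma, 87 were called at an adjusted p below 0.05, 1.17% of those tested, with 38 higher in ICR (0.51%) and 49 lower (0.657%). Of 5735 genes, each read from 1 probe set, 62 were called (1.08%), 30 higher (0.523%) and 32 lower (0.558%). The median difference over all genes was 0.02. All 62 called genes had the same sign in the control pair and in the smoked pair, and 60 differed at least 2-fold in both, which the test itself favours, since disagreement between the pairs counts as error. The median absolute difference of the called genes was 1.68, and 11 of the higher and 10 of the lower genes differed at least 4-fold. With 2 arrays a strain the number of calls rested on single arrays. Limma called 12 probe sets without the ICR control array, 15 without ICR smoked, 145 without DBA control, 218 without DBA smoked, 220 without C57 control and 218 without C57 smoked. Of the 62 called genes, Hspa1b, Gm15772, H2-Ea, Ctse and Bpifb1 were called whichever of the 6 arrays was left out, 57 lost the call without ICR control and 55 without ICR smoked, and none changed direction. Without scaling between arrays 4 probe sets were called higher and 253 lower, with a median over all probe sets of -0.89.

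**Figure D1:**
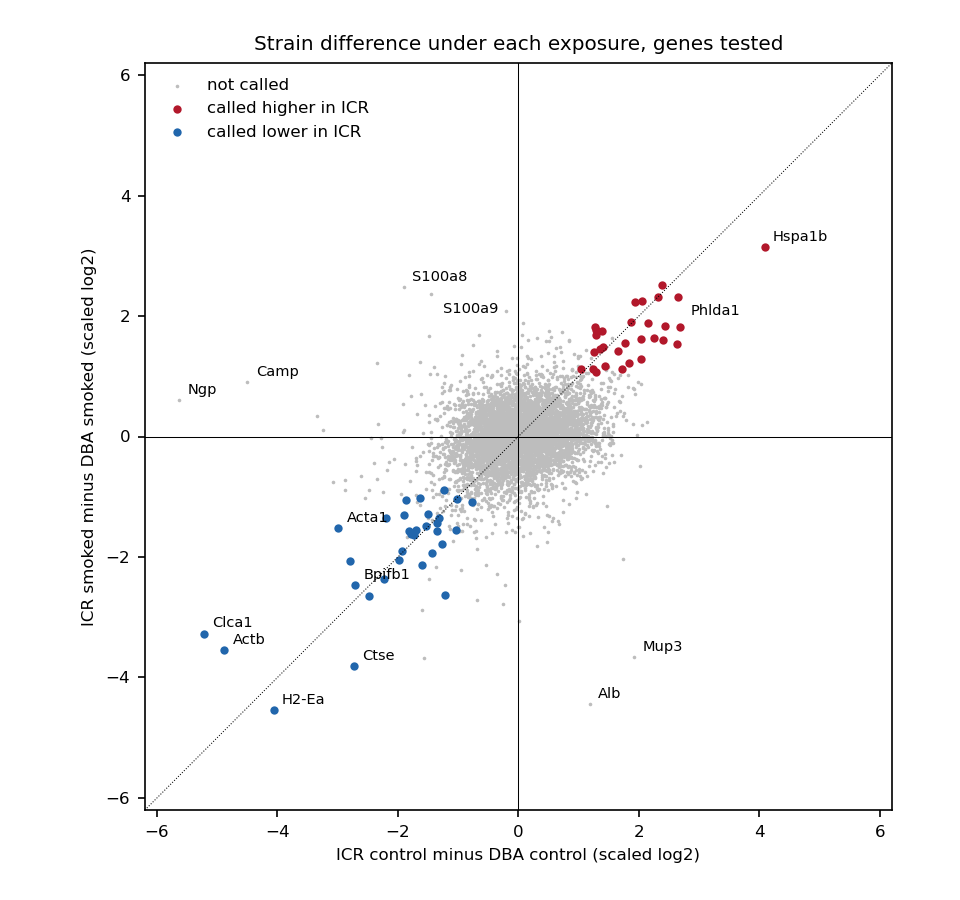
ICR minus DBA between the control arrays (x axis) and between the smoked arrays (y axis), scaled log2, for the 5735 genes tested; red and blue points are the 30 and 32 genes called higher and lower in ICR, grey points those not called, and the dotted line marks equal differences. The called genes lie in the 2 corners where both pairs have 1 sign, which the test itself favours. Hspa1b lies at 4.09 and 3.14, and Clca1, farther from the line, at -5.21 and -3.27. S100a8, S100a9, Mup3 and Alb, which were not called, had opposite signs in the 2 pairs.

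Of the 62 called genes 9 lay in the major histocompatibility complex. Chromosome 17 had 10 called genes of 322 tested, more than any other chromosome, and these 9 lay between the class I genes H2-K1 and H2-M2, where 76 genes were tested (11.8% called, against 1.08% of all genes). The rest of the chromosome had 1 called gene, Prkce, of 246. In gene order the called genes were H2-Eb1, H2-Ea, Hspa1b, Hspa1a, D17H6S56E-5, Vars, H2-Q1, H2-Q4 and H2-Q5, and 38 tested genes lay from the first to the last of them. They did not share a direction: 3 were higher in ICR and 6 lower, and H2-Q1 and H2-Q4, next to each other among the tested genes, differed by 2.08 and -1.34. The other genes from H2-K1 to H2-M2 were not called. The median over the 76 was -0.21, against 0.02 for all genes. Notch4, next to H2-Ea, differed by 0.85, adjusted p = 0.139, and Bag6, a chaperone gene beyond Vars, by -1.24, adjusted p = 0.0535. Hspa1a and Hspa1b are close copies, as are the H2-Q genes, and their probe sets may share signal. The 9 called genes are therefore not 9 separate readings. The stretch was chosen after its values were seen. Differences between strains in the sequence under a probe set and in the level of its transcript cannot be told apart on these arrays.

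**Figure D2:**
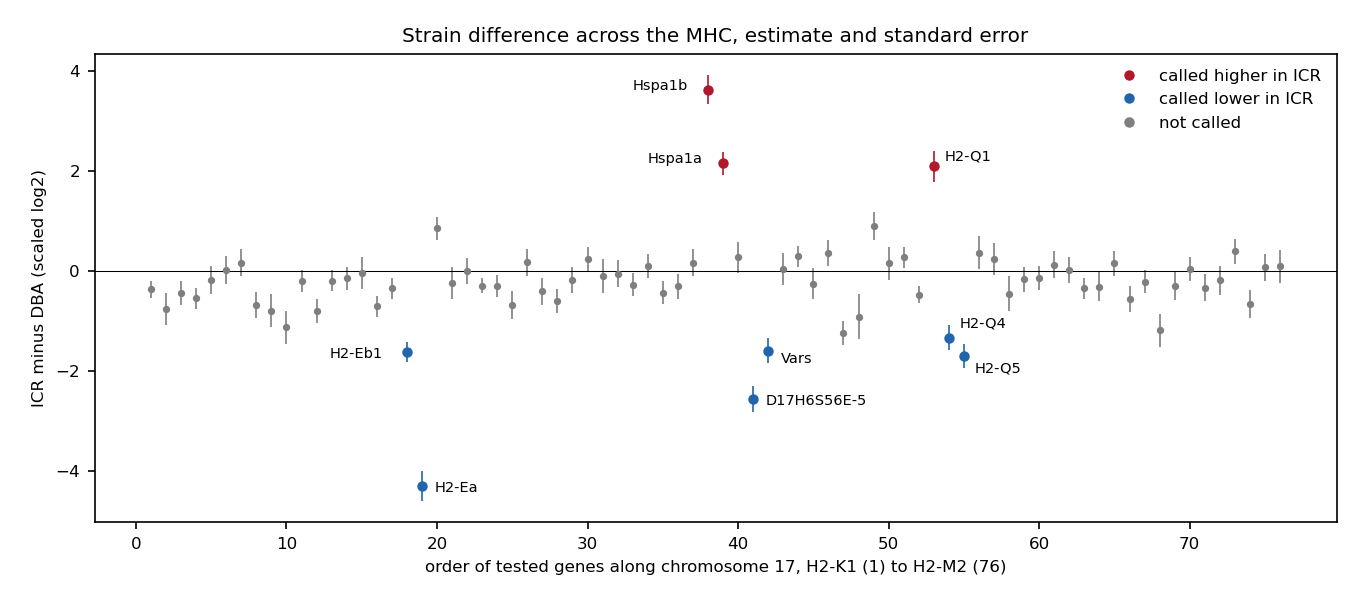
ICR minus DBA (scaled log2, y axis) for the 76 tested genes from H2-K1 to H2-M2 in their order along chromosome 17 (x axis); points are limma estimates, bars 1 standard error, red and blue the called genes. Hspa1b (3.62) and H2-Ea (-4.30) stand farthest from 0, and the called genes form 3 small clusters, at the class II E genes, at the heat shock genes with D17H6S56E-5 and Vars, and at the H2-Q genes.

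H2-Ea, the alpha chain of the class II E molecule, was the gene with the largest called difference when each gene was read from the 1 probe set that stands for it. Scaled log2 levels were 10.47 and 10.08 on DBA control and DBA smoked and 6.41 and 5.53 on ICR control and ICR smoked, so the DBA arrays were far above the ICR arrays under both exposures (-4.30, SE 0.29, adjusted p = 0.000374, a 19.8-fold lower level in ICR). Deposited intensities were 1594 and 1450 in DBA and 71.6 and 17.7 in ICR, and 1.96 and 1.83 in C57. Mice of the b haplotype, to which C57 strains belong, are known to carry a deletion that silences this gene; the ICR arrays lay between those of C57 and DBA. H2-Eb1, the beta chain of the same molecule, read 10.82 and 10.09 in DBA and 9.11 and 8.55 in ICR and was lower in ICR by a smaller amount (-1.63, SE 0.21, adjusted p = 0.00814). Its C57 levels, 10.45 and 10.17, were within the range of the DBA levels.

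The other class II genes were not called. Of 12 tested members of the list of class II genes and their loading factors, 2 were called lower and 0 higher, against 0.558% and 0.523% of all genes. The median was -0.61, against 0.02 for all genes (-0.77 for the control pair and -0.22 for the smoked pair, -1.48 without scaling, -0.59 relative to all genes). The A molecule's chains H2-Ab1 and H2-Aa differed by -0.71, adjusted p = 0.165 and -0.35, adjusted p = 0.455. The peptide exchange factor H2-DMb1 differed by -1.13, adjusted p = 0.149, and Cd74, the invariant chain, by -0.41, adjusted p = 0.365. In 8 of 12 members both ICR arrays lay below both DBA arrays, against 22.7% of all genes tested, and in 0 above, against 25.6%. Class II genes are expressed by B cells, dendritic cells and macrophages. In a whole-lung sample fewer cells of a type and less RNA per cell cannot be told apart. None of 23 tested macrophage and dendritic cell genes was called (median -0.09; -0.35 for the control pair and 0.02 for the smoked pair), and their summed scaled level over 30 measured genes was 10674 and 6452 on DBA control and DBA smoked and 8429 and 7974 on the ICR arrays. None of 14 tested B cell genes was called (median 0.04), with summed scaled levels over 19 measured genes of 3080 and 1534 on DBA control and DBA smoked and 2454 and 2652 on the ICR arrays. No marker of either list was listed at 0, and their part in the class II result was not tested.

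Among class I genes the H2-Q cluster differed and the classical genes did not pass the test. H2-Q1 read 4.97 and 5.19 in DBA and 6.91 and 7.43 in ICR and was higher in ICR (2.08, SE 0.30, adjusted p = 0.0146). H2-Q4 read 11.28 and 10.84 in DBA and 9.96 and 9.49 in ICR (-1.34, SE 0.25, adjusted p = 0.0477), and H2-Q5 8.96 and 8.61 in DBA and 7.18 and 6.99 in ICR (-1.70, SE 0.24, adjusted p = 0.0135), both lower in ICR. H2-Q genes are close copies of each other, so a probe set of one may read another and their single values are uncertain. The classical class I genes H2-K1 and H2-D1, carried by nearly all cells, differed by -0.37, adjusted p = 0.341 and -0.48, adjusted p = 0.248. The peptide transporter Tap1 differed by -0.81, adjusted p = 0.165, and the immunoproteasome subunits Psmb8 and Psmb9 by -0.20 and -0.20. Of 16 members of the class I and antigen processing list tested, which H2-Q5 is not on, 1 was called higher and 1 lower. The shares over all genes were 0.523% and 0.558%, and the list median was -0.20.

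Hspa1b, an inducible Hsp70 chaperone that refolds damaged proteins, was the gene with the largest called difference in favour of ICR. Its scaled log2 levels were 6.19 and 6.37 on DBA control and DBA smoked and 10.28 and 9.52 on ICR control and ICR smoked, and 6.82 and 6.95 in C57. Only the ICR arrays were high (3.62, SE 0.29, adjusted p = 0.000592, 12.3-fold). Deposited intensities were 78.7 and 112 in DBA and 1134 and 353 in ICR, so the dim ICR smoked array also read above both DBA arrays before any scaling. Hspa1a, its neighbour, read 7.11 and 6.66 in DBA and 9.16 and 8.91 in ICR (2.15, SE 0.23, adjusted p = 0.00314), and 7.55 and 7.26 in C57. The pair encode almost the same protein, and their probe sets may share signal.

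The promoters of the pair are shown because the genes moved together. They are the 250 bases before the annotated start of each gene, from RefSeq on build GRCm38.p6, at chr17:34959239-34959488, minus strand, for Hspa1b and chr17:34972157-34972406, minus strand, for Hspa1a. Capitals mark the core of a heat shock element, GAANNTTC, searched on both strands, the motif bound by heat shock factor.
Hspa1b: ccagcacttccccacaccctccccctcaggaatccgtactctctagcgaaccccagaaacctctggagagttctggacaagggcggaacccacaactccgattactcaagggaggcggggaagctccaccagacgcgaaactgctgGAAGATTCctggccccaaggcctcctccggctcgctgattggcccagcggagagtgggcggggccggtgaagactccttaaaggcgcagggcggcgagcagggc
Hspa1a: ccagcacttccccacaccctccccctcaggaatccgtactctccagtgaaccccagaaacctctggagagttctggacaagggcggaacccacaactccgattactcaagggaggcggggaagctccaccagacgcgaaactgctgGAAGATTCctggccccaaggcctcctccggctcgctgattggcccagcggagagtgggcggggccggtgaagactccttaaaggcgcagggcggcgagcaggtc
The windows were identical at 247 of 250 positions and differed at 3. Each held 1 match, which began 104 bases before the start. Of 32851 RefSeq promoter windows of this length, 6.69% held a match, and of 27 listed chaperone genes with a window, 10 did. The sequence is that of the reference strain, not of ICR or DBA, and a match describes the letters only.

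Beside the pair, the chaperone list had no further call. Of 28 tested members 2 were called higher and 0 lower, against 0.523% and 0.558% of all genes. Both ICR arrays lay above both DBA arrays for 11, against 25.6% of all genes tested, and below for 0, against 22.7%. The list median was 0.30 (0.49 for the control pair and 0.10 for the smoked pair; -0.63 without scaling, 0.25 relative to all genes). The co-chaperone Dnajb1 differed by 1.03, adjusted p = 0.0844 and the Hsp110 chaperone Hsph1 by 0.97, adjusted p = 0.0977; the constitutive Hspa8 differed by 0.87, adjusted p = 0.184 and Dnajb4 by 0.81, adjusted p = 0.337. For these 4 the control pair differed more than the smoked pair, for example 1.25 and 0.48 for Hspa8. Dnajb2, a J-domain co-chaperone that was not on the list, was called lower in ICR, at 8.05 and 8.29 in DBA and 6.12 and 6.39 in ICR (-1.91, SE 0.23, adjusted p = 0.00578). None of 17 tested genes of endoplasmic reticulum stress was called (median 0.13).

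Immediate early genes, transcription factors and signalling regulators that rise within minutes of a stimulus, included 3 called genes of 29 tested, all higher in ICR. Of all genes tested 0.523% were called higher. Phlda1, a stress- and growth factor-induced regulator, read 6.05 and 6.60 in DBA and 8.70 and 8.92 in ICR (2.49, SE 0.25, adjusted p = 0.00239). Klf2, a transcription factor of quiescent endothelium, read 6.60 and 6.86 in DBA and 8.46 and 8.76 in ICR (1.89, SE 0.27, adjusted p = 0.0139). Jun, a subunit of AP-1, read 7.93 and 8.18 in DBA and 9.22 and 9.25 in ICR (1.18, SE 0.22, adjusted p = 0.0456). For all 3 both ICR arrays lay above both DBA arrays, which the call itself favours. The mean C57 level was closer to ICR than to DBA for Phlda1 (8.36 and 8.26 on the C57 arrays) and Klf2 (8.24 and 7.76). For Jun, at 8.14 and 8.26 in C57, it was closer to DBA. Over the list of 29 tested genes, 16 had both ICR arrays above both DBA arrays, against 25.6% of all genes, and 0 had them below, against 22.7%. The median was 0.45 (0.41 for the control pair and 0.50 for the smoked pair; -0.49 without scaling, 0.40 relative to all genes). Fos, the partner of Jun, differed by 1.23, adjusted p = 0.0641, the nuclear receptor Nr4a1 by 1.42, adjusted p = 0.0695, Jund by 1.08, adjusted p = 0.0563 and the matricellular gene Ccn1 by 0.97, adjusted p = 0.174. The hour of collection, which the sources used here do not give, and the strain cannot be told apart. Errfi1, a feedback inhibitor of the EGF receptor and a member of the glucocorticoid response list, was called higher at 9.11 and 8.91 in DBA and 10.14 and 10.03 in ICR (1.08, SE 0.20, adjusted p = 0.0474); it was 1 of 20 tested genes of that list, whose median was 0.13.

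**Figure D3:**
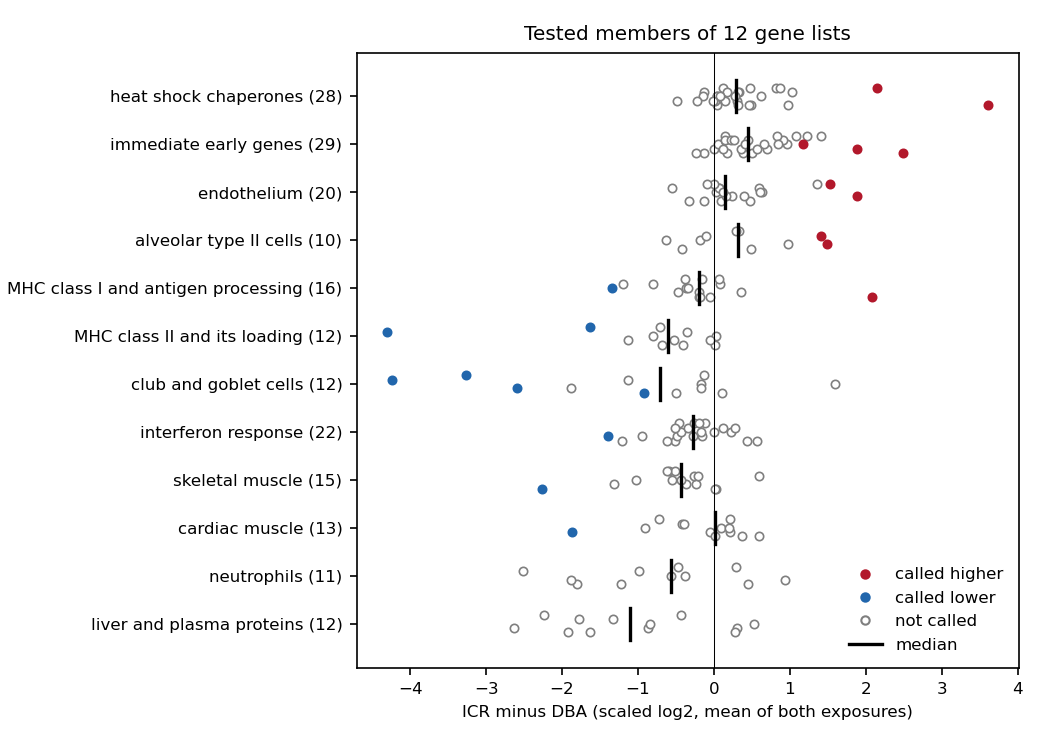
ICR minus DBA (scaled log2, x axis) for every tested member of 12 gene lists, with the number tested in brackets; filled red and blue points were called higher and lower in ICR, open points were not called, and black bars are list medians. Heat shock and immediate early genes have called members only to the right (2 and 3 genes), and class II and airway secretory genes only to the left (2 and 4 genes), in the scaled data.

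Of 12 tested club and goblet cell genes, which the airway secretes into its lining fluid or uses to detoxify, 4 were called lower in ICR and 0 higher. The shares over all genes tested were 0.558% and 0.523%. Both ICR arrays lay below both DBA arrays for 8 members, the 4 called among them, against 22.7% of all genes, and above for 1, against 25.6%. The list median was -0.71, against 0.02 for all genes (-0.67 for the control pair and -0.72 for the smoked pair, -1.54 without scaling, -0.65 relative to all genes). Clca1, a secreted protein of goblet cells, read 9.96 and 8.55 on DBA control and DBA smoked and 4.74 and 5.28 on ICR control and ICR smoked (-4.24, SE 0.47, adjusted p = 0.00359), so that ICR was near the lower end of the array's range, as were the C57 arrays at 4.74 and 5.44. A second Clca1 probe set, below the filter on signal, differed by 0.11. Ctse, the aspartic protease cathepsin E, read 10.35 and 10.43 in DBA and 7.63 and 6.62 in ICR (-3.27, SE 0.29, adjusted p = 0.000955); its other probe sets differed by -2.91, which was called, and by -0.21, which was not. Bpifb1, a secreted lipid-binding protein of the airway defence family, read 10.16 and 10.50 in DBA and 7.45 and 8.03 in ICR (-2.59, SE 0.22, adjusted p = 0.000806), and the C57 arrays, at 10.06 and 10.09, lay with DBA. Cyp2f2, the club cell P450 that activates naphthalene, read 12.03 and 12.32 in DBA and 11.27 and 11.24 in ICR (-0.92, SE 0.17, adjusted p = 0.0453), the smallest called difference of all.

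Other members of the list were not called. Scgb1a1, the main club cell product, differed by 0.10, adjusted p = 0.772, but it lay among the brightest probe sets, where scaling by quantiles gives every array nearly the same value, so its difference is not informative. Muc1, a membrane mucin, differed by -0.17, adjusted p = 0.716. Ltf, the iron-binding lactoferrin, which neutrophils also make, differed by -1.88, adjusted p = 0.076, and Pigr, which carries IgA across the epithelium, by -1.13, adjusted p = 0.111. Chia1, an acidic chitinase, differed the other way by 1.59, adjusted p = 0.0594, with 8.07 and 7.17 in DBA and 9.63 and 8.80 in ICR. The summed scaled level of the 18 measured club and goblet genes was 20125 and 21550 on DBA control and DBA smoked and 15187 and 15348 on the ICR arrays. This sum includes the 4 called genes and Scgb1a1, so it does not show a lower level of the other members. Of ciliated cell genes, the other main airway cell type, 4 were tested and 0 called (median -0.49), with summed levels of 4397 and 4167 on DBA control and DBA smoked and 3225 and 4347 on the ICR arrays, which overlapped between the strains.

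Of 10 tested alveolar type II cell genes 2 were called, both higher in ICR, against 0.523% of all genes called higher. Chil1, a chitinase-like protein, read 8.83 and 8.31 in DBA and 10.13 and 9.99 in ICR (1.49, SE 0.27, adjusted p = 0.0388). Hc, complement component 5, which the lung's type II cells also make, read 8.14 and 8.04 in DBA and 9.51 and 9.50 in ICR (1.41, SE 0.20, adjusted p = 0.0142). Both ICR arrays of each were above both DBA arrays, which the call itself favours. The C57 levels of Hc were higher still, at 10.27 and 10.34. Some inbred strains, DBA/2 among them, are known to carry a frameshift deletion in Hc; the labels do not say which DBA substrain was used. The median of the type II cell list was 0.31 (-0.52 without scaling, 0.37 relative to all genes). Sftpb and Sftpc, which encode surfactant proteins, differed by -0.63, adjusted p = 0.165 and -0.10, adjusted p = 0.772, the latter at the same bright end of the array, and Napsa, the protease that processes surfactant protein B, by 0.98, adjusted p = 0.152. None of 8 type I cell genes was called (median -0.29).

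Of 20 tested endothelial genes Klf2 and Sox17 were called higher in ICR, against 0.523% of all genes. The list median was 0.14 (-0.68 without scaling, 0.21 relative to all genes). Sox17, a transcription factor of arterial endothelium, read 7.12 and 7.09 in DBA and 8.78 and 8.50 in ICR (1.54, SE 0.23, adjusted p = 0.0147), whereas a second Sox17 probe set differed by 0.26 and was not called. Edn1, the vasoconstrictor endothelin, differed by 1.35, adjusted p = 0.0613, and the junction gene Cdh5 by 0.63, adjusted p = 0.144. In the complement list, Cd59a, which blocks the membrane attack complex, was higher in ICR beside Hc, at 7.37 and 7.34 in DBA and 8.77 and 9.09 in ICR (1.57, SE 0.24, adjusted p = 0.0173). The subunits of C1q, made by macrophages, were not called: C1qa differed by -1.11, adjusted p = 0.138 and C1qb by -1.07, adjusted p = 0.2.

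Acta1 and Myl3, genes of striated muscle, were called lower in ICR. Acta1, the actin of skeletal muscle, read 8.49 and 6.33 in DBA and 5.51 and 4.80 in ICR (-2.26, SE 0.38, adjusted p = 0.0295), and 11.49 and 11.02 in C57. Of 15 tested skeletal muscle genes it alone was called, against 0.558% of all genes called lower. The list median was -0.43, with -1.01 for the control pair and -0.13 for the smoked pair. Actn3 differed by -1.31, adjusted p = 0.0873 and Atp2a1, the calcium pump of fast fibres, by -1.03, adjusted p = 0.144. The summed scaled level of the 21 measured muscle genes was 2032 and 1457 on DBA control and DBA smoked and 1347 and 1382 on the ICR arrays, against 8355 and 6078 on the C57 arrays. The part of muscle tissue in the Acta1 result was not tested. Myl3, a ventricular and slow muscle myosin light chain, read 7.09 and 7.35 in DBA and 5.49 and 5.21 in ICR (-1.87, SE 0.26, adjusted p = 0.012), and was the only called gene of 13 tested cardiac genes, whose median was 0.02; the atrial Myl7 differed by -0.39, adjusted p = 0.467 and Myh6 by 0.21, adjusted p = 0.763.

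For Actb, cytoplasmic beta-actin, the gene's own probe sets differed far more than the control probe sets of the array. The probe set that stands for the gene read 8.91 and 9.77 in DBA and 4.02 and 6.22 in ICR (-4.22, SE 0.46, adjusted p = 0.00329), and its second probe set differed by -3.03 (adjusted p = 0.000592). The beta-actin control probe sets of the array, which read the 3' end, the middle and the 5' end, had deposited intensities of 6064, 4155 and 3714 on ICR control, against 7168, 6096 and 4921 on DBA control. On ICR smoked they had 2736, 1040 and 576, against 7283, 5527 and 4374 on DBA smoked. The gene's own probe sets had deposited intensities of 7.32 and 13.95 on ICR control, against 532 and 210.1 on DBA control, and of 31.2 and 14.3 on ICR smoked, against 1184 and 438 on DBA smoked. All were lower in ICR in deposited intensity, the control probe sets by far less on the control pair. The median of the whole array was lower in ICR as well. It was 52.16 on ICR control against 68.71 on DBA control, and 25.91 on ICR smoked against 84.8 on DBA smoked. The lower control probe sets therefore do not show a lower Actb level, and neither the direction nor the size of the Actb difference is settled by these arrays.

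Lists of antioxidant defence, detoxification and other functions are described next. Of all genes tested 1.08% were called, so 1 call or none in such a list says little about the list as a whole. Gpx2, the glutathione peroxidase of epithelia, was called lower in ICR, at 8.10 and 9.22 in DBA and 6.83 and 7.43 in ICR (-1.53, SE 0.24, adjusted p = 0.0194), with C57 levels of 8.60 and 9.72. It was the single call among 21 tested antioxidant enzymes (median -0.04). Sod1, the cytosolic superoxide dismutase, differed by -1.80, adjusted p = 0.157, with -2.88 between the control arrays and -0.72 between the smoked arrays. None of 29 NRF2 targets (median -0.23), 16 glutathione S-transferases (median -0.32) or 8 genes of the aryl hydrocarbon receptor pathway (median -0.0004) was called. Slc39a4, an intestinal-type zinc importer, was the single call of 6 tested metallothionein and zinc genes, at 9.44 and 9.59 in DBA and 8.09 and 8.03 in ICR (-1.46, SE 0.21, adjusted p = 0.0144). Its second probe set differed by -0.46 and was not called, with -1.51 for the control pair and 0.58 for the smoked pair. Of 22 interferon response genes Iigp1, an immunity-related GTPase, was called lower, at 8.87 and 8.83 in DBA and 7.37 and 7.55 in ICR (-1.39, SE 0.25, adjusted p = 0.0374), and its second probe set was called at -1.66; the list median was -0.27. Igtp, a related GTPase, differed by -1.21, adjusted p = 0.0555. Fbln1, the matrix protein fibulin, was the single call among 30 collagen and elastic fibre genes, at 9.04 and 9.11 in DBA and 7.31 and 7.47 in ICR (-1.68, SE 0.23, adjusted p = 0.012), against a list median of 0.07. The other tested Fbln1 probe sets differed by -1.55, which was called, and by -0.63, which was not. None of 16 protease inhibitors was called (median -0.32), and Psmb6 was the single call, higher, among 27 proteasome subunits.

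The remaining large differences were spread over the genome. Higher in ICR were Thumpd1, an RNA-modification adaptor, at 5.23 and 5.36 in DBA and 7.62 and 7.89 in ICR (2.46, SE 0.26, adjusted p = 0.0026), and Gm15772, at 9.98 and 9.93 in DBA and 12.30 and 12.25 in ICR (2.32, SE 0.18, adjusted p = 0.000592). Tmem159, on chromosome 7 with 1 tested gene between it and Thumpd1, was higher too (1.66, adjusted p = 0.0196), as were Cd59a and Immp1l, a subunit of the mitochondrial inner membrane peptidase, on chromosome 2 with 4 tested genes between them (1.82, adjusted p = 0.012 for Immp1l). Aldh9a1, an aldehyde dehydrogenase, read 4.72 and 5.08 in DBA and 7.41 and 6.89 in ICR (2.25, SE 0.30, adjusted p = 0.0103), so that DBA lay below both other strains, with C57 at 7.03 and 6.96. Itm2a, a membrane protein gene on the X chromosome, read 5.16 and 5.49 in DBA and 7.60 and 7.32 in ICR (2.13, SE 0.29, adjusted p = 0.012), and here C57, at 5.20 and 5.32, lay with DBA. The kinase gene Prkce (2.08), the neuronal pentraxin Nptx1 (2.02), the proteasome subunit Psmb6 (1.95) and the spliceosome factor Cwc22 (1.67) completed the 15 largest, with Pdxdc1 (2.0), whose probe sets disagreed: the others differed by 2.22 and by -5.58, all called. A second tested Prkce probe set differed by only 0.14, adjusted p = 0.859, and was not called.

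Lower in ICR were Bcat2, the mitochondrial branched-chain aminotransferase, at 7.74 and 7.47 in DBA and 4.95 and 5.41 in ICR (-2.43, SE 0.29, adjusted p = 0.00547), and Ap2b1, a subunit of the clathrin adaptor, at 7.83 and 7.40 in DBA and 5.60 and 5.04 in ICR (-2.30, SE 0.27, adjusted p = 0.00547). Another adaptor subunit, Ap2a2, was called as well (-1.33, adjusted p = 0.0479). D17H6S56E-5, of the histocompatibility stretch, read 6.95 and 7.18 in DBA and 4.48 and 4.52 in ICR (-2.57, SE 0.26, adjusted p = 0.00239), and its neighbour Vars, valyl-tRNA synthetase, 8.11 and 8.14 in DBA and 6.22 and 6.83 in ICR (-1.60, SE 0.25, adjusted p = 0.02). For 6330403K07Rik (-2.01) and AI506816 (-1.92) the C57 arrays lay with ICR, and for Tmem14c (-1.77), a mitochondrial protein of haem synthesis, with DBA. Over all called genes the C57 mean was nearer ICR for 24 and nearer DBA for 38, evenly for the higher genes (15 and 15) and 9 against 23 for the lower ones. Of 13 called genes with several tested probe sets, 10 had all of them in the same direction and Pdxdc1, Pla2g12a and Sema4b did not. Every tested probe set was called in only 3 of the 13.

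The other called genes differed less. In the higher direction they ran from 1.18 for Ccng2, a cyclin of growth arrest, and 1.30 for Tent5c, a poly(A) polymerase, over 1.33 for the microtubule protein tau, Mapt, 1.41 for 4833420G17Rik and 1.44 for the peptide transporter Slc15a2, to 1.54 for Sema4b, a semaphorin, whose second tested probe set differed by -0.18. In the lower direction they ran from -1.03 for the ubiquitin ligase Ubr4 and -1.29 for the splicing regulator Hnrnpl, over -1.39 for the proton pump subunit Atp6v0a1, to -1.68 for Lrp5, a co-receptor of Wnt proteins, and -1.70 for Pla2g12a, a secreted phospholipase, whose second probe set differed by 0.79; neither second probe set was called. A further 10 genes were called only at a probe set other than the one with the highest mean, among them Actn1, an actin cross-linker (-2.81 there, 0.28 at another), and Tapbp, which loads class I molecules (-1.27 there, -0.18 at the probe set that stands for the gene). Of the 9 called probe sets that could not be tied to 1 gene, 4 carried several symbols and 5 none. They held the largest rise and a large fall: a probe set with several symbols read 4.10 and 4.25 in DBA and 9.29 and 9.23 in ICR (5.09, SE 0.29, adjusted p = 0.000113), and one with no symbol 8.36 and 7.83 in DBA and 5.17 and 3.94 in ICR (-3.54, SE 0.34, adjusted p = 0.0019).

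Several lists held no called gene, which says little about lists of this size when 1.08% of all genes were called. They included 14 clock genes (median -0.09), 19 cell cycle genes (median -0.11), 13 p53 targets (median 0.09), 33 respiratory chain genes (median 0.12), 14 ribosomal protein genes (median 0.05), 20 chemokine and cytokine genes (median -0.08), 10 T and NK cell genes (median 0.00) and 11 smooth muscle and pericyte genes (median -0.25). Of 5 tested erythroid genes all had both ICR arrays above both DBA arrays, against 25.6% of all genes, with a median of 0.57 (-0.27 without scaling, 0.61 relative to all genes), and none was called; the haemoglobin gene Hbb-b2 differed by 0.57, adjusted p = 0.256 and Alas2, the first enzyme of haem synthesis in red cells, by 0.78, adjusted p = 0.289.

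**Figure D4:**
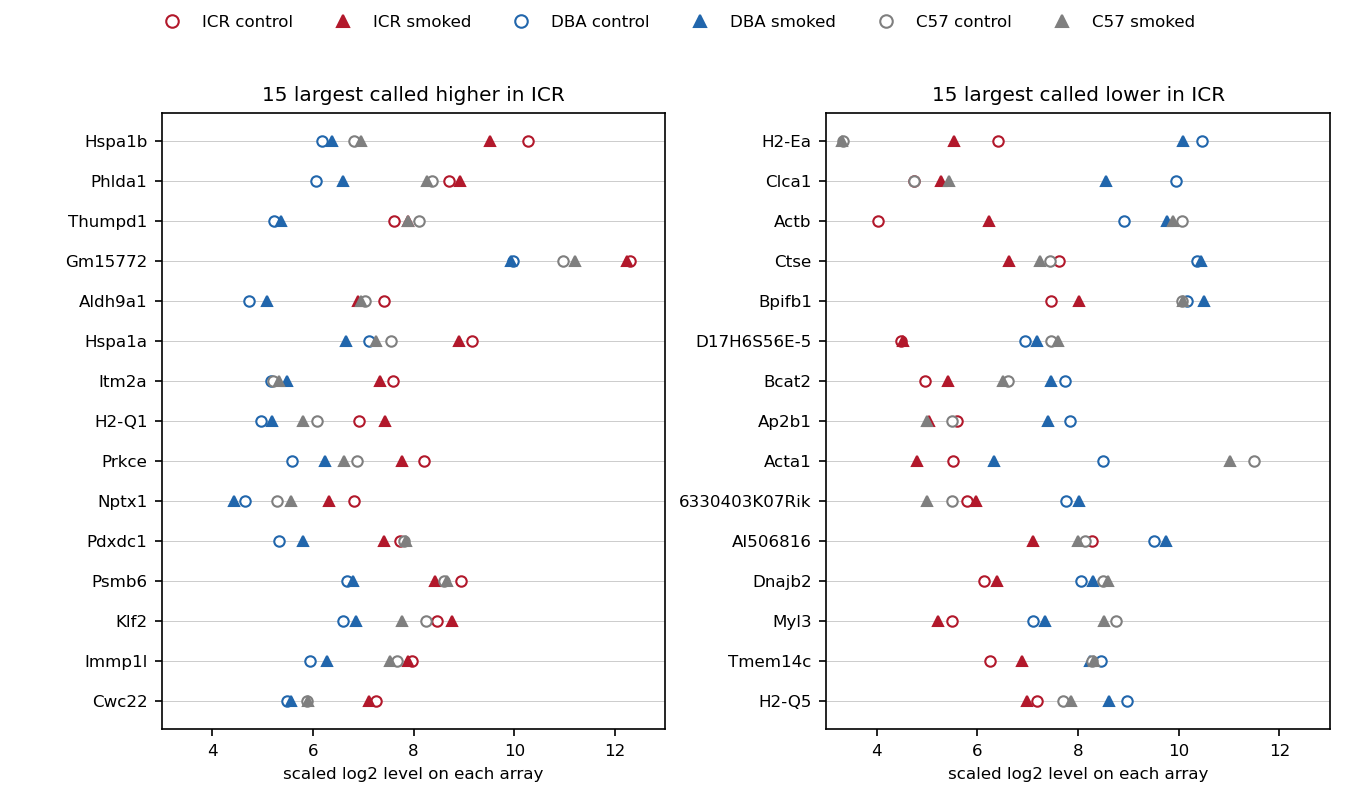
Scaled log2 levels (x axis) on each of the 6 arrays for the 15 genes with the largest called difference in each direction; red is ICR, blue DBA and grey C57, open circles are control and filled triangles smoked arrays. In every row the 2 red marks do not overlap the 2 blue ones, which the choice of called genes favours. Over all genes tested, 25.6% had both ICR arrays above both DBA arrays and 22.7% below. The grey marks lie with ICR for Aldh9a1 and Clca1, with DBA for Itm2a and Bpifb1, and outside both for H2-Ea and Acta1.

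Some genes of neutrophils and liver differed between the strains in opposite directions under the 2 exposures, with 1 array for each and no test. S100a8, a subunit of the neutrophil protein calprotectin, read 12.49 and 7.44 on DBA control and DBA smoked and 10.59 and 9.92 on ICR control and ICR smoked, so that ICR was below DBA among controls and above it among smoked mice. Its partner S100a9 read 11.72 and 7.27 in DBA and 10.26 and 9.63 in ICR. DBA control was the high array: the summed scaled level of 17 measured neutrophil genes, S100a8 among them, was 19002 and 1654 on DBA control and DBA smoked and 5463 and 4110 on the ICR arrays. None of 11 tested neutrophil genes was called, and their median was -1.90 for the control pair and 0.61 for the smoked pair. Mup3, a major urinary protein made by the liver, read 3.44 and 9.07 in DBA and 5.36 and 5.41 in ICR, and the plasma protein Alb 4.61 and 10.09 in DBA and 5.80 and 5.65 in ICR, with DBA smoked as the high array. The summed level of 25 measured liver and plasma protein genes was 6739 and 11335 on DBA control and DBA smoked and 4874 and 4749 on the ICR arrays. Over all genes tested 2389 had opposite signs in the 2 pairs, and 14 of these differed at least 2-fold each way. Serpina1c, one of the antitrypsin genes of liver, lay just outside the threshold (-1.92, SE 0.38, adjusted p = 0.0535), and its 2 relatives Serpina1e and Serpina1b differed by -2.63 and -2.24. Just inside it lay Jup, a junction protein (-1.06, SE 0.20, adjusted p = 0.0498), and Grb2, an adaptor of growth factor receptors (-1.47, SE 0.28, adjusted p = 0.0496); just outside lay Igfbp2, which binds insulin-like growth factors (1.03, adjusted p = 0.0525), and Sphk1, sphingosine kinase (-1.42, adjusted p = 0.0525).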

How the data were processed

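Lung RNA of 6 Affymetrix arrays was used, 1 for each strain and exposure. The authors deposited 1 intensity per probe set on a linear scale; their summary software and scaling are not stated in the sources used here. Probe sets were named from GEO's platform annotation, updated through RefSeq (GRCm38.p6): outside the 66 controls 10833 had 1 gene symbol, 396 several and 1193 none. The values plus 8.05, the 20th percentile of all values, were taken to log2, which understates the change of low genes, and quantile normalized. The filter kept probe sets whose mean over arrays exceeded the 40th percentile. Strain and exposure were fitted to all 6 arrays by limma (version 3.58.1, R 4.3.3), using lmFit and a trended eBayes with 2 residual degrees of freedom, and the contrast ICR minus DBA was tested 2-sided with Benjamini-Hochberg adjustment over all probe sets kept. With 1 array for each strain and exposure, the spread behind the p-values is how far the strains, C57 included, disagree in smoked minus control. A smoke response particular to 1 strain counts as that spread. Variation between mice of the same strain and exposure was not measured, and the number of arrays limits the precision. Comparisons of ICR and of DBA with C57 share arrays, so no overlap between them was computed.

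The members and the 44 gene lists were chosen with earlier results of these data known. Named were the 15 largest called genes in each direction, every called list member, up to 4 further members of a list described, the 5 genes with the largest opposite differences under the exposures, and genes at the threshold. The other names, among them Vars, Notch4, Bag6, Tmem159, Alb, Camp, Ngp and the called genes with smaller differences, were chosen after their values were seen. Plots used matplotlib 3.10.9 and Python 3.11.15. The alternatives were another pseudocount, filter, scaling, variance prior, set of arrays and no exposure block.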

Additional observations from a re-analysis of the deposited data

Results flagged for a closer look

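Of the 2389 genes with opposite signs of ICR minus DBA under the 2 exposures, the 5 with the largest differences both ways are given here, with 1 array for each strain and exposure, so the difference between exposures was not tested. ICR minus DBA on the scaled log2 scale was -1.9 between the control arrays and 2.48 between the smoked arrays for S100a8, and -1.46 and 2.36 for its partner S100a9, both of which encode the neutrophil protein calprotectin. Ltb4r1, the leukotriene B4 receptor carried by neutrophils, had -1.49 and 1.67. In all 3 the DBA control array held the highest level of the 6 arrays. Mup3, a liver gene, had 1.92 between the control arrays and -3.66 between the smoked arrays, with DBA smoked as the highest array. Rangrf, whose product acts in nuclear transport, had 1.73 and -2.03, and its lowest level was on ICR smoked, where its deposited intensity was 3.33, below the constant of 8.05 that was added before log2. The summed levels of the neutrophil and liver gene lists in the report were highest on the same arrays, DBA control and DBA smoked. The neutrophil sum includes S100a8 itself, so it is not a separate observation. The part of either list in these values was not tested.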

How the results depend on the processing

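Of 87 probe sets called, 38 were higher and 49 lower. The counts stayed within 1.5 times of these under another pseudocount, a stricter filter, scaling to a common median, another variance prior and no exposure block. They moved to 38 (14 higher, 24 lower) with no filter on low signal, to 257 (4 higher, 253 lower) with no scaling between arrays, and to 312 (124 higher, 188 lower) with the 4 ICR and DBA arrays alone, a fit with 1 residual degree of freedom that rests almost wholly on the pooled spread. Leaving out 1 array at a time gave 12 to 220 calls, 4 to 82 higher and 8 to 139 lower. A strain left with 1 array is then assumed to vary like the others. None of the 62 called genes changed direction in any of 16 alternatives or within either exposure, and Hspa1b, Gm15772, H2-Ea, Ctse and Bpifb1 were called in every alternative that tested them. No paired analysis was possible because every group has the replicate number 1 only; exposure was the block instead. The median deposited intensity was lowest on the ICR smoked array, at 25.91, and 28.66% of its probe sets outside the controls lay under the added constant. A gene under that constant there has a difference that depends on it.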
